A study of Mus musculus with 6 samples.

Results

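Cells with transcripts of Zbtb16 and none of Bcl11b were examined in 6 sci-RNA-seq3 libraries of mouse T-cell progenitors. A cell was a member if it held at least 2 Zbtb16 UMIs (unique molecular identifiers, each counting 1 captured RNA molecule) and 0 Bcl11b UMIs. Of 60671 cells kept, 1674 (2.76%) met this rule, and they are called Zbtb16+ Bcl11b- cells here. Members were thus chosen by their Zbtb16 and Bcl11b UMIs, and the levels of these 2 genes are given only as a description. The minus sign means no UMI, since a cell of this depth can express Bcl11b and yield none.

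Zbtb16 encodes PLZF, a BTB zinc finger transcription factor that marks precursors of innate lymphoid cells (ILCs) and is needed for natural killer T-cell development. Bcl11b encodes a zinc finger factor that T-cell progenitors switch on as they commit to the T lineage, and progenitors that lack it can turn to natural killer (NK) and other innate fates. Progenitors pass through the double negative stages DN1, DN2a and DN2b, and Bcl11b is normally activated between DN2a and DN2b. The study asked what programs arise when this activation is delayed by the loss of a distal enhancer.

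The libraries were WT or ΔTE (Del_TE in the labels), and ΔTE mice lacked the distal Bcl11b timing enhancer on both alleles. Mice of both genotypes were C57BL/6 animals that carried a yellow fluorescent reporter in Bcl11b. Kit-enriched bone marrow of 6 to 8 mice of 2 to 4 months, males and females together, was pooled, and DN1, DN2a or DN2b progenitors grown from it were sorted and cultured again for 4 days on OP9-DL1, a bone marrow stromal line that presents the Notch ligand DL1. The stage names therefore give the sorted start and not the stage at harvest. In the study's sort DN2a cells were Bcl11b-negative and DN2b cells Bcl11b-positive. Members from DN2b thus descend from a start sorted as Bcl11b-positive. By the study's methods, all its cultures for generating T cells held Flt3 ligand and IL-7. Its cultures for NK cells and ILCs, these among them, were supplemented with IL-7, IL-2, stem cell factor and IL-15. Each of the 6 conditions was 1 library, so that nothing was tested between genotypes or starts.

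After the filter, 3401 to 19489 cells remained per library, with a median of 386 to 485 UMIs per cell. The WT DN2a library stood apart in its median mitochondrial share, at 13.3% against 20.9% to 23.9% in the other libraries. No barcode was shared between libraries. The barcode names split each library over 3 reverse-transcription wells, which share a culture and are not replicates.

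Zbtb16+ Bcl11b- cells made up a larger share of every ΔTE library than of any WT library. They were 218 of 10925 cells in WT DN1 (2.0%, Clopper-Pearson 95% interval 1.74% to 2.28%), 270 of 19489 in WT DN2a (1.39%, 1.23% to 1.56%) and 73 of 4968 in WT DN2b (1.47%, 1.15% to 1.84%). In ΔTE they were 408 of 10294 cells from DN1 (3.96%, 3.59% to 4.36%), 566 of 11594 from DN2a (4.88%, 4.50% to 5.29%) and 139 of 3401 from DN2b (4.09%, 3.45% to 4.81%). The intervals of the WT and ΔTE libraries did not overlap in any start, and the ΔTE share was 1.99-fold the WT share in DN1, 3.52-fold in DN2a and 2.78-fold in DN2b. These values chose the cells and cover counting error only, so they describe these libraries and carry no test. The rule also leaves out cells with a Bcl11b UMI, and Bcl11b was lower in ΔTE from each start. WT DN1, DN2a and DN2b held 235, 534 and 856 CPM of Bcl11b (counts scaled to equal UMI totals), and ΔTE 89.3, 256 and 539 CPM. Cells with at least 2 Zbtb16 UMIs and Bcl11b were 0.339%, 0.390% and 0.564% in WT and 0.253%, 0.466% and 0.500% in ΔTE. The part of Bcl11b in the ratios was not tested.

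The shares were uneven between the wells of the ΔTE libraries. In WT the wells spanned 1.87% to 2.17% from DN1, 1.27% to 1.52% from DN2a and 1.15% to 1.99% from DN2b. The ΔTE DN1 wells spanned 3.58% to 4.47%, whereas 1 well of ΔTE DN2a held 2.01% against 5.56% and 6.77% in the others, and 1 well of ΔTE DN2b held 2.10% against 5.24% and 5.34%. The low ΔTE DN2a well also had fewer UMIs per cell (median 390 against 472 and 511.5), a lower mitochondrial share (16.6% against 24.5% and 22.4%) and less Bcl11b (185 against 288 and 283 CPM, the count of a gene scaled to equal UMI totals). The part of the wells in the difference between genotypes was not tested.

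Detection depended on depth, and the difference between the libraries remained after cells were brought to equal depth. The share of members rose from 1.39% of cells with 200 to 399 UMIs to 7.25% of cells with 1000 to 2000 UMIs. After each cell of at least 300 UMIs was thinned to 300, the shares were 0.818%, 0.806% and 0.521% in WT DN1, DN2a and DN2b, and 1.45%, 2.24% and 1.84% in ΔTE. At this depth the low ΔTE DN2a well (0.839%) lay within the WT DN2a wells (0.652% to 0.875%), and the low ΔTE DN2b well (0.833%) lay above the highest WT DN2b well (0.732%).

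**Figure D1:**
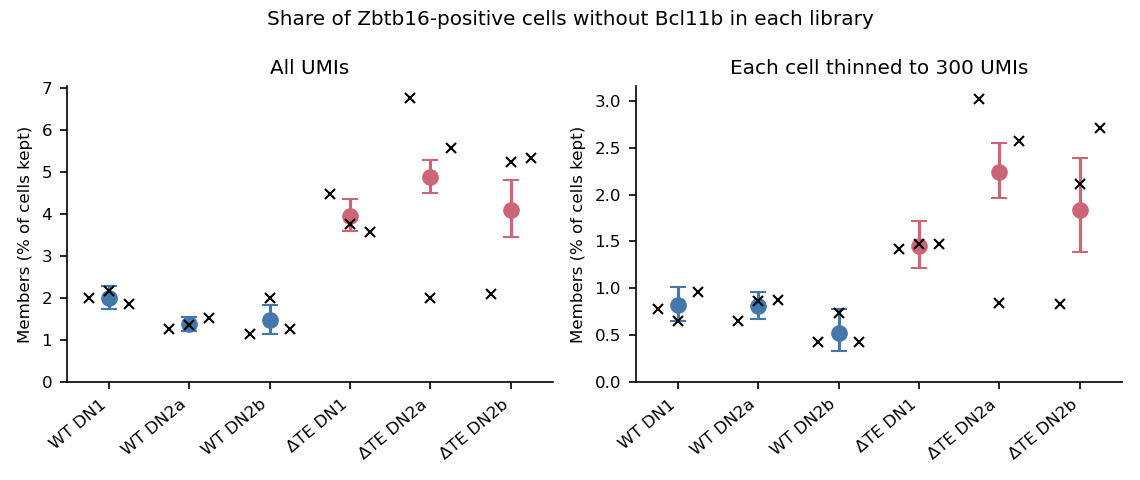
Share of Zbtb16+ Bcl11b- cells among the cells kept (%) in each of the 6 libraries, with all UMIs (left) and after thinning each cell to 300 UMIs (right). Circles and bars are the library value and its 95% Clopper-Pearson interval (blue WT, red ΔTE), and crosses are the 3 wells of a library. With all UMIs the WT libraries lie between 1.39% and 2.0% and the ΔTE libraries between 3.96% and 4.88%, with 1 low well each in ΔTE DN2a and ΔTE DN2b.

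Most members lay just inside the threshold. Among cells without Bcl11b, 4976 held 1 Zbtb16 UMI and were left outside, 1208 held 2 and were the lowest members, 319 held 3, and 147 members held 4 or more. The highest member held 12. Members had a median of 609 UMIs, against 512 in cells with 1 Zbtb16 UMI and 414 in cells with 0 of both. Free RNA was gauged in 1857 stromal barcodes (at least 10 UMIs of stromal genes, median 697 UMIs), of which 8 (0.431%, 0.186% to 0.847%) met the rule for members.

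Of cells with at least 2 Zbtb16 UMIs in the 6 libraries pooled, 91.6% had no Bcl11b UMI at 200 to 399 UMIs and 80.7% at 1000 to 2000 UMIs. The same shares in cells with 0 Zbtb16 UMIs were 88.4% and 74.7%. The order differed between libraries. At 1000 to 2000 UMIs, cells with at least 2 Zbtb16 UMIs and cells with 0 lacked a Bcl11b UMI in 75.0% and 80.5% in WT DN1, 59.0% and 68.2% in WT DN2a and 56.5% and 45.7% in WT DN2b. In ΔTE the shares were 93.9% and 92.7% in DN1, 84.4% and 78.8% in DN2a and 77.8% and 55.8% in DN2b.

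Members were then compared with cells of the same library that had 0 UMIs of both genes, 3 for each member, matched on total UMIs. The comparison addresses which other genes were expressed where Zbtb16 was. UMIs were summed over the cells of each class in each library, and edgeR's quasi-likelihood test with the library as a block was run on 9842 genes. Of these, 529 (5.37%) passed a Benjamini-Hochberg adjusted p of 0.05, 145 (1.47%) of them higher in members and 384 (3.9%) lower, and the median log2 fold change over all genes was -0.03. The 6 libraries are 6 conditions, so the p-values set the mean difference against its spread over these conditions. A called gene need not differ the same way in every library. DESeq2 called 74 higher (0.752%) and 117 lower (1.19%). CPM was higher in members of all 6 libraries for 243 genes (2.47%) and lower in all 6 for 486 (4.94%). The WT libraries alone gave 30 higher (0.408%) and 103 lower (1.4%) of 7358 genes and the ΔTE libraries 89 (0.979%) and 152 (1.67%) of 9095, and whether the contrast differed between genotypes was not tested.

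Most of the lower calls were lost once stromal cells were left out. Stromal collagens and secreted proteins (Col1a1, Col1a2, Col3a1, Sparc, Bgn), the chemokine gene Cxcl12 and Kitl, which encodes the ligand of Kit, were lower in members. All 15 tested genes of the OP9-DL1 stroma list were lower in members, with a median log2 fold change of -2.85. The summed level of the list was 116 to 641 CPM in members and 468 to 4946 CPM in matched cells, and Pdgfra, Vcam1, Igfbp5, Tnc and Lama2 had 0 UMIs in members. At least 3 stromal UMIs were found in 17 of 1674 members and 422 of 5022 matched cells. When these cells were left out, 92 of 9358 genes were higher (0.983%) and 47 lower (0.502%). Of the 145 higher genes, 86 were called again in the same direction, against 30 of the 384 lower genes, of which 162 still had enough UMIs to test. Values after this removal are given below wherever a call was lost.

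Transcription factors of ILCs and NK cells were higher in members. Of 13 tested genes of this list, 9 were higher and none lower, with a median log2 fold change of 1.02 (1.10 without stromal cells), and all 9 were called again without stromal cells. They were Rora, Gata3, Tox, Tox2, Id2, Maf, Tcf7, Runx3 and Ikzf2. Nfil3 (1.02), Ikzf3 (1.42), Ets1 (0.29) and Bhlhe40 (-1.55) did not pass the test. Among factors with too few UMIs to test, Eomes had 3 UMIs in members and 0 in matched cells, Tbx21 had 1 and 0, and Prdm1 had 0 and 2.

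Rora encodes an orphan nuclear receptor required for group 2 ILCs. Its level in members was 90.4, 187 and 603 CPM in WT DN1, DN2a and DN2b and 68.0, 180 and 706 CPM in the ΔTE libraries, against 51.6, 79.6 and 97.2 CPM and 21.6, 56.7 and 152 CPM in matched cells. Members were higher in every library, and in both genotypes the level in members was highest from DN2b. The log2 fold change was 1.71 ± 0.16 (SE), a 3.28-fold difference, with an adjusted p of 2.6e-23, and 2.40 without stromal cells.

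Gata3, which is needed for early T-cell development and for ILC2s, was more even between libraries. It was at 161, 303 and 486 CPM in members of the WT libraries and 278, 402 and 535 CPM in members of the ΔTE libraries, and at 60.2, 157 and 207 CPM and 129, 146 and 262 CPM in matched cells. Members exceeded their own matched cells in each library. The log2 fold change was 1.20 ± 0.13 (SE; adjusted p = 1.7e-18).

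Tox and Tox2 encode related HMG-box proteins, and TOX acts early in ILC and NK development. Tox was at 1104, 1304 and 1555 CPM in WT members and 1133, 1626 and 2811 CPM in ΔTE members, against 557 to 922 CPM in matched cells. The lowest member value lay above the highest matched value. The log2 fold change was 1.07 ± 0.09 for Tox and 2.80 ± 0.37 for Tox2 (SE), and Tox2 was sparse, with 63 UMIs in all members and 26 in all matched cells.

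Id2, an inhibitor of E proteins required for all ILC lineages, was higher in 5 of 6 libraries, and in WT DN1 it was at 25.8 CPM in members and 40.9 CPM in matched cells. In the other libraries members ranged from 48.5 CPM in ΔTE DN1 to 558 CPM in ΔTE DN2b. Its log2 fold change was 0.97 ± 0.19 (SE). Maf, a leucine zipper factor of several innate and helper T-cell types, was higher in all 6 libraries, from 38.7 against 10.8 CPM in WT DN1 to 626 against 140 CPM in ΔTE DN2b.

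Smaller differences were found for Tcf7, Runx3 and Ikzf2. Tcf7, which encodes the Notch-induced factor TCF1, had a log2 fold change of 0.52 ± 0.11 (SE), Runx3, a factor of cytotoxic and innate lymphocytes, of 0.54 ± 0.11, and Ikzf2, an Ikaros family member, of 0.87 ± 0.11. Each was higher in members of all 6 libraries. Members and matched cells overlapped in range between libraries for Tcf7, since matched WT DN2b cells were at 525 CPM and WT DN1 members at 445 CPM.

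**Figure D2:**
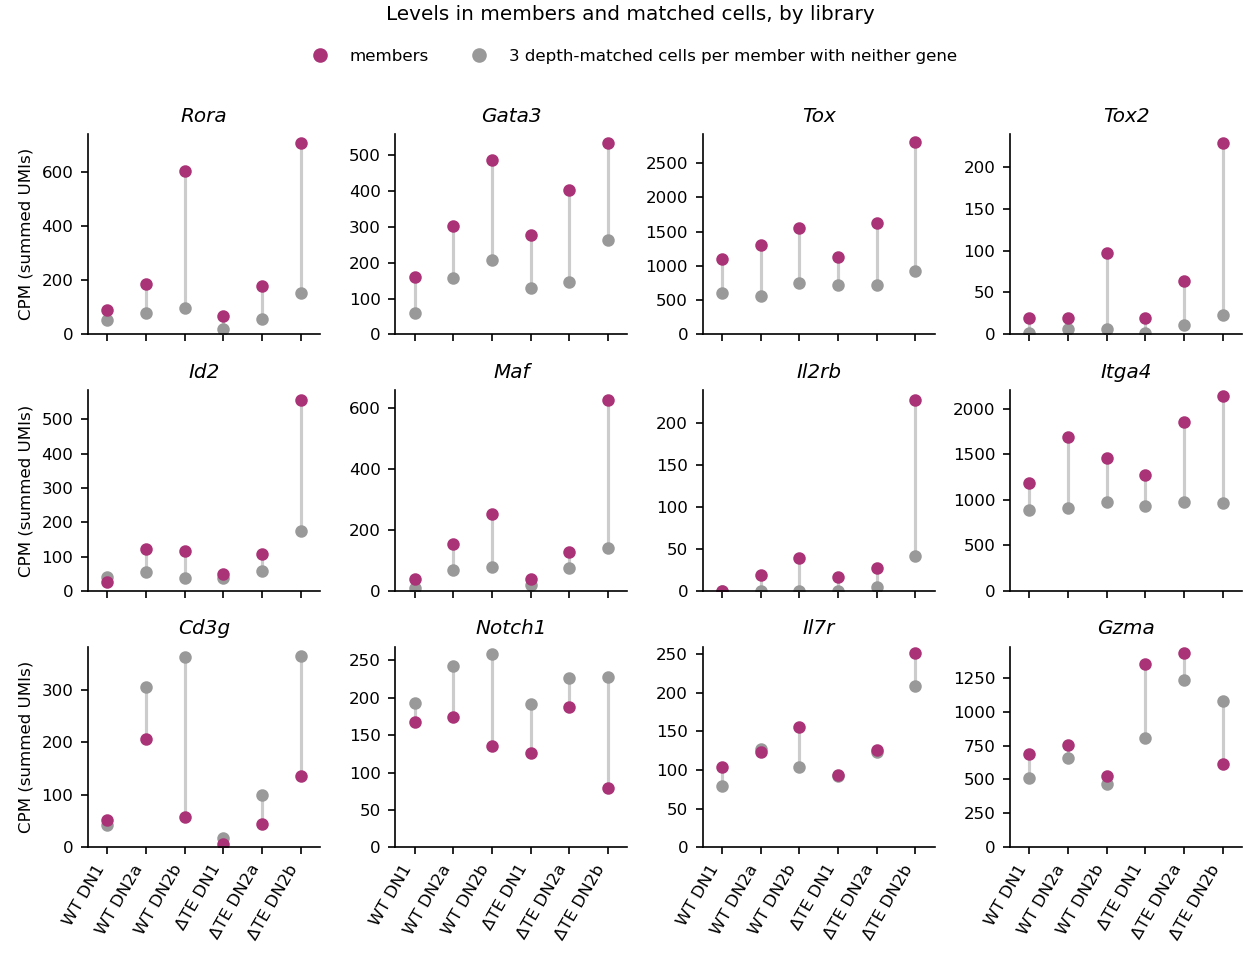
CPM of 12 genes in the summed UMIs of Zbtb16+ Bcl11b- cells (purple) and of matched cells with neither gene (grey) in each library, with a line joining the 2 classes of a library. Rora, Gata3, Tox, Tox2, Maf and Itga4 are higher in members of all 6 libraries, and Notch1 is lower in all 6. Il7r and Gzma are higher in 5 libraries and lower in 1, and neither passed the test.

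Genes of NK cells and ILC1s were mixed. Of 13 tested genes, 5 were higher (Il2rb, Klrk1, Gzmb, Cd160 and Fcer1g), 1 was lower (Itga1), and the median log2 fold change was 0.49. Without stromal cells Il2rb, Gzmb and Cd160 were called, Klrk1 (2.02, adjusted p = 0.051) and Fcer1g (0.40, adjusted p = 0.065) were not, and Itga1 was not lower (-0.74, adjusted p = 0.87). Il2rb, the receptor chain shared by IL-2 and IL-15, had 41 UMIs in members and 17 in matched cells, and 228 CPM in ΔTE DN2b members against 0 to 38.9 CPM in members of the other libraries. Klrk1 was higher in members of 3 libraries and lower in 1, with 14 of its 22 member UMIs from ΔTE DN2a and 7 from ΔTE DN2b. Gzmb, encoding granzyme B, was higher in members of all 6 libraries, at 297 to 706 CPM against 159 to 376 CPM. Gzma, encoding granzyme A, did not pass the test (0.22, adjusted p = 0.25), and in ΔTE DN2b it was at 615 CPM in members and 1078 CPM in matched cells. Other NK genes had too few UMIs to test, with 14 UMIs in the 1674 members and 13 in the 5022 matched cells for Ncr1, 1 and 1 for Klrb1c, 14 and 15 for Klrd1, 10 and 13 for Xcl1 and 6 and 0 for Gzmc. No UMI of Prf1 or Ifng was found in members.

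Surface genes of ILC precursors included 4 higher genes of 13 tested, Il18r1, Pdcd1, Itga4 and Kit, and the same 4 without stromal cells. Itga4 encodes the α4 integrin chain, and it was at 1188 to 2140 CPM in members and 889 to 981 CPM in matched cells, without overlap. Itgb7, which encodes the β7 integrin chain, did not pass the test (0.21, adjusted p = 0.57). Il18r1, an IL-18 receptor chain, had a log2 fold change of 2.15 ± 0.38 (SE). Pdcd1, which encodes PD-1 and is high in ILC precursors, had one of 1.79 ± 0.23. In WT DN1 Pdcd1 was lower in members (12.9 against 17.2 CPM). Kit, the stem cell factor receptor, was higher by 0.48 ± 0.12 on the log2 scale in all 6 libraries. Il7r, the IL-7 receptor chain used to define lymphoid precursors, did not pass the test (0.12 ± 0.16, adjusted p = 0.86), with 93.8 to 250 CPM in members and 79.6 to 209 CPM in matched cells.

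Of 9 tested ILC2 genes, 2 were higher and 1 lower, with a median log2 fold change of 0.12. Icos, a costimulatory receptor, was higher in all 6 libraries (1.62 ± 0.32, SE), at 6.46 to 307 CPM in members and 0 to 114 CPM in matched cells. Its direction in DN1 rests on 1 UMI against 0 in WT and 2 against 4 in ΔTE, with 3 matched cells for each member. Lmo4, a LIM-only cofactor, was also higher in all 6 libraries (0.67 ± 0.14). Cd81 was lower only while stromal cells were included (-1.52, and -0.38 with an adjusted p of 0.89 without them). No UMI of Il1rl1, Il5, Areg, Arg1 or Klrg1 was found in members or matched cells, and Il4 and Il13 had too few to test, with 11 and 3 UMIs in the 1674 members and 7 and 2 in the 5022 matched cells. Of the cytokine signalling list, Il2rb, Kit and Jak1 were higher and Flt3 lower of 19 tested, and Jak1 and Flt3 lost their calls without stromal cells (0.33, adjusted p = 0.051, and -3.25, adjusted p = 0.065).

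**Figure D3:**
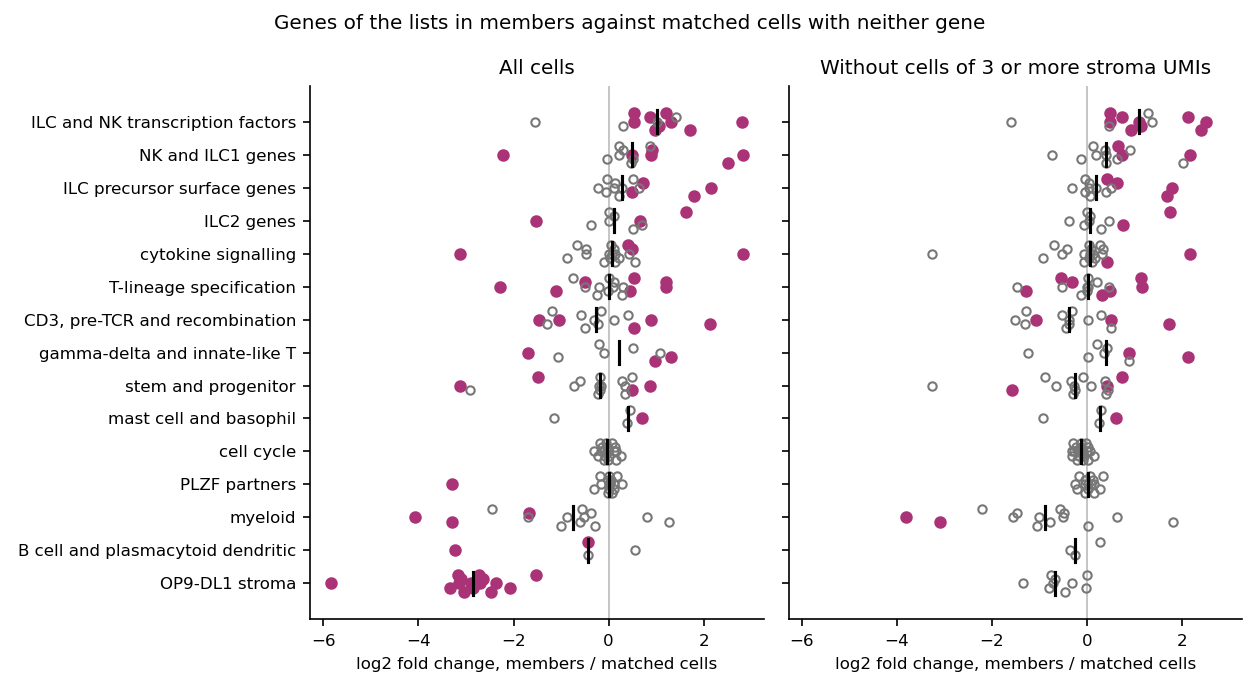
Log2 fold change of each tested gene of 15 lists, members against matched cells with neither gene, for all cells (left) and without cells of 3 or more stromal UMIs (right). Filled points passed an adjusted p of 0.05, open points did not, and bars are the medians. The median of the ILC and NK transcription factors is 1.02 and 1.10, and that of the stroma list moves from -2.85 to -0.67.

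The T-lineage genes divided. Of 17 tested specification genes, Tcf7, Gata3, Lef1 and Ikzf1 were higher and Notch1, Notch3 and Dtx1 lower, with a median log2 fold change of 0.01. Notch1, the receptor that drives T-cell specification, was lower in members of all 6 libraries, at 79.7 to 187 CPM against 192 to 259 CPM, with a log2 fold change of -0.50 ± 0.14 (SE; adjusted p = 0.010). Every member value lay below every matched value. Dtx1, a target of Notch signalling, was lower in 5 of 6 libraries (-1.10, 19 UMIs in members and 123 in matched cells), and Notch3 was no longer called without stromal cells (-1.47, adjusted p = 0.27). Runx1 did not pass with all cells (-0.21, adjusted p = 0.27) and was called lower without stromal cells (-0.31, adjusted p = 0.018).

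Among genes of the T-cell receptor machinery, Cd28 and Trat1 were higher and Cd3g and Dntt lower, and the list of 14 tested genes had a median log2 fold change of -0.26. Cd3g, a chain of the CD3 complex, was at 51.6, 207 and 58.3 CPM in WT members and 6.47, 44.4 and 137 CPM in ΔTE members, and at 43.0, 305 and 363 CPM and 17.3, 100 and 364 CPM in matched cells. Members were lower in 5 of 6 libraries, with WT DN1 as the exception (log2 fold change -1.05 ± 0.19, SE; adjusted p = 2.5e-06). Cd28, encoding a costimulatory receptor, was higher by 2.13 ± 0.34 on the log2 scale (SE). Dntt, which encodes terminal deoxynucleotidyl transferase, had 10 UMIs in members and 82 in matched cells and was not called without stromal cells (log2 fold change -1.47 with all cells and -1.52 without them, adjusted p = 0.12). Themis, a T-lineage signalling protein outside the lists, was higher in all 6 libraries (2.10 ± 0.18, SE), at 38.7 to 353 CPM against 6.46 to 110 CPM.

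Other genes with the highest differences that recurred in all 6 libraries were Hmga2, a chromatin protein of fetal and progenitor cells (2.10 ± 0.18, SE), Itgae, the αE integrin chain (1.80 ± 0.21), Nt5e, the ectonucleotidase CD73 (2.31 ± 0.32), Inpp4b, a phosphoinositide phosphatase (1.46 ± 0.12), St6gal1, a sialyltransferase (1.53 ± 0.27), Togaram2 (2.37 ± 0.53) and Lztfl1 (1.24 ± 0.23). All were called again without stromal cells. Togaram2 was sparse, and in WT DN1 and in WT DN2b it had 1 UMI in members and 1 in their matched cells, 3 for each member. Inpp4b was at 226, 323 and 1069 CPM in WT members and 210, 498 and 1844 CPM in ΔTE members, above its matched cells (104 to 463 CPM) within every library and highest from DN2b in both genotypes.

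Progenitor and myeloid genes pointed the other way in part. Of 16 tested stem and progenitor genes, Kit and Ikzf2 were higher and Flt3 and Mef2c lower. Mef2c, a factor of lymphoid-primed progenitors, had 20 UMIs in members and 170 in matched cells (-1.48 ± 0.35, SE) and was called again without stromal cells. Of 14 myeloid genes none was higher, and Csf1r, Lyz2 and S100a9 were lower, with 2 against 69, 9 against 91 and 1 against 69 UMIs. Without stromal cells Lyz2 was not called (-1.57, adjusted p = 0.083). The summed level of the myeloid list was 56.9 to 278 CPM in members and 64.5 to 609 CPM in matched cells, and Cebpa and S100a8 had 0 UMIs in members and 28 and 27 in matched cells. Cpa3, a mast-cell protease gene that early progenitors also transcribe, was higher in members of all 6 libraries (0.70 ± 0.10, SE), at 603 to 955 CPM against 329 to 649 CPM, while no UMI of the mast-cell genes Ms4a2 or Fcer1a was found in either class. When cells with any stromal UMI or at least 2 myeloid UMIs were left out, 96 of 9125 genes were higher (1.05%) and 34 lower (0.373%), and the 9 ILC and NK factors kept their direction, with adjusted p from 1.1e-37 (Rora) to 0.0028 (Runx3). Mef2c (-1.17, adjusted p = 0.11), Dtx1 (-1.11, adjusted p = 0.13), Kit (0.34, adjusted p = 0.17), Ikzf1 (0.25, adjusted p = 0.24) and Trat1 (0.26, adjusted p = 0.64) were called without stromal cells but not in this setting. The reverse held for Klrk1 (2.42, adjusted p = 0.0090), Jak1 (0.44, adjusted p = 0.0021) and Dntt (-1.87, adjusted p = 0.030), which were called in this setting.

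Of 8 genes linked to γδ and innate-like T cells, Maf and Cd163l1, a scavenger receptor gene of γδ T cells, were higher, and Id3, an inhibitor of E proteins, was lower with all cells (-1.69) and not without stromal cells (0.36, adjusted p = 0.94). Ebf1 and Tcf4 were lower among 4 genes of B cells and plasmacytoid dendritic cells, and without stromal cells Tcf4 was not called (-0.24, adjusted p = 0.48) and Ebf1 had too few UMIs to test. None of 20 cell cycle genes passed the test, with log2 fold changes between -0.30 and 0.26. Of 16 genes for corepressors and other partners of PLZF only Runx1t1 was called, lower with 1 UMI in members and 40 in matched cells, and it had too few UMIs to test without stromal cells. Of 18 other BTB zinc finger genes tested, none was higher, and Zbtb20 and Zbtb38 were lower with all cells. Neither was called without stromal cells (-0.14, adjusted p = 0.86, and -0.72, adjusted p = 0.11). Of the 3 genes that the study presents as predicted Zbtb16 targets, a choice made on these samples, none passed with all cells. The study reported them as differing between ΔTE and WT cells of the DN2a start, which is another contrast than the one made here. Pde4d was at 0.00, Camk1d at -0.08 and Runx1 at -0.21 on the log2 scale. Camk1d was higher in members of 3 libraries and lower in 3. From DN2a it was at 1414 against 1981 CPM in WT and 4154 against 3211 CPM in ΔTE. Pde4d was above the matched cells in DN1 of both genotypes (2492 against 1932 CPM in WT, 2459 against 2009 CPM in ΔTE) and below them in DN2b (797 against 1360 CPM, 751 against 1272 CPM).

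The levels of several of these genes were then set out by the number of Zbtb16 UMIs. Cells without Bcl11b were grouped into 0, 1, 2 and at least 3 Zbtb16 UMIs, with 5022 and 1674 matched cells in the lower groups and 1208 and 466 members. The cells with 0 UMIs and the members are those already compared, so their difference is not a further result. Only the cells with 1 UMI and the split of the members are new. The groups pool libraries in which these genes differ in level, and the values are a description. Rora was at 58.7, 86.1, 154 and 295 CPM over these groups, Tox at 700, 998, 1375 and 1678 CPM, and Themis at 43.5, 93.0, 159 and 256 CPM. Cells with 1 UMI, which the rule leaves out, thus lay between the groups on either side for each of them. Gata3 (143, 246, 331 and 354 CPM) rose less between the upper groups, where its Poisson intervals overlapped, and Il7r (115, 139, 128 and 117 CPM) had overlapping intervals throughout. Cd3g went from 130 CPM at 0 UMIs to 74.1, 74.6 and 41.8 CPM. The median depths of the groups were 605.5, 606, 562.5 and 685 UMIs, and at least 3 stromal UMIs were found in 422, 29, 9 and 8 cells.

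**Figure D4:**
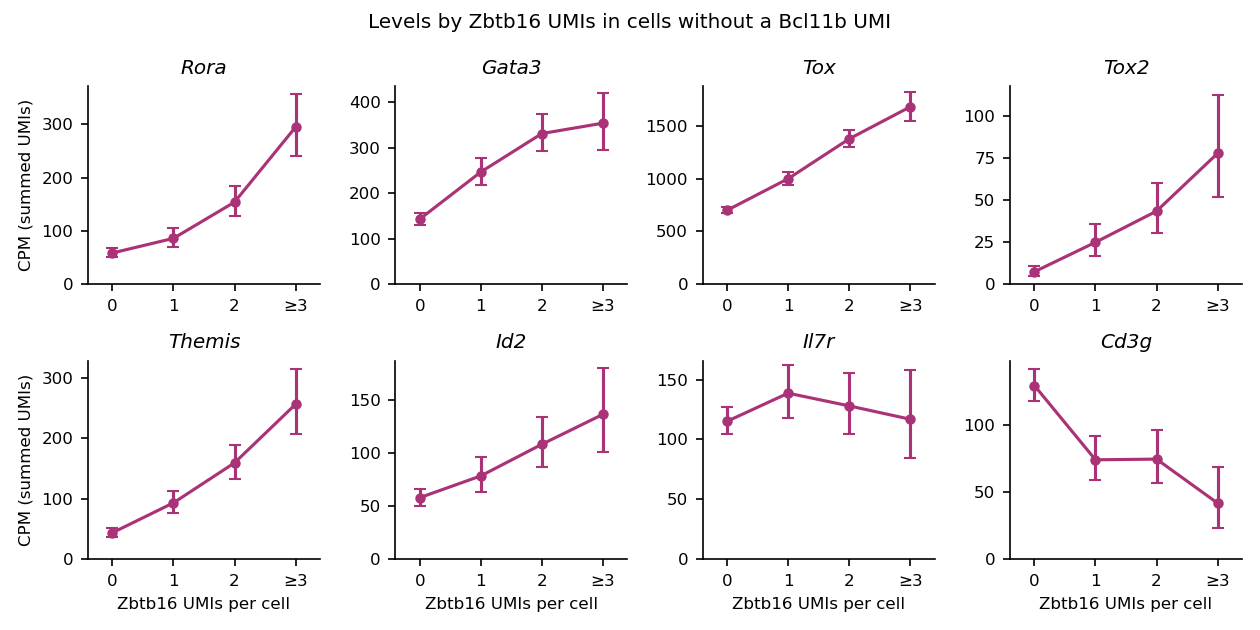
CPM of 8 genes in the summed UMIs of cells with no Bcl11b UMI, by Zbtb16 UMIs per cell (0 and 1 in depth-matched cells, 2 and at least 3 in members). The 6 libraries are pooled, and bars are 95% Poisson intervals for counting error. Rora rises from 58.7 to 295 CPM and Themis from 43.5 to 256 CPM, Il7r stays between 115 and 139 CPM, and Cd3g falls from 130 to 41.8 CPM.

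Within members, most cells carried UMIs of only some of these factors. Tox was detected in 842 of 1674 members (50.3%), Tcf7 in 28.1%, Gata3 in 17.6%, Rora in 8.12%, Maf in 6.87% and Id2 in 6.33%, against 31.4%, 20.1%, 8.36%, 3.31%, 3.09% and 3.29% of matched cells. None of the 6 was detected in 30.7% of members and 48.4% of matched cells, and at least 3 were detected in 188 members of 1674 and 136 matched cells of 5022. These 6 genes were chosen after their values were seen. Of the 136 members with Rora, 26.5% also had Id2 and 27.9% had Maf, against 4.55% and 5.01% of the members without Rora, and 15.4% against 1.43% had Icos. The median depths of these members were 632.5 and 604.5 UMIs. Cd3g was found in 3.68% of members with Rora and 2.73% of the others, and Kit in 17.6% and 17.9%. The values pool libraries in which these genes differ in level, and they are a description.

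**Figure D5:**
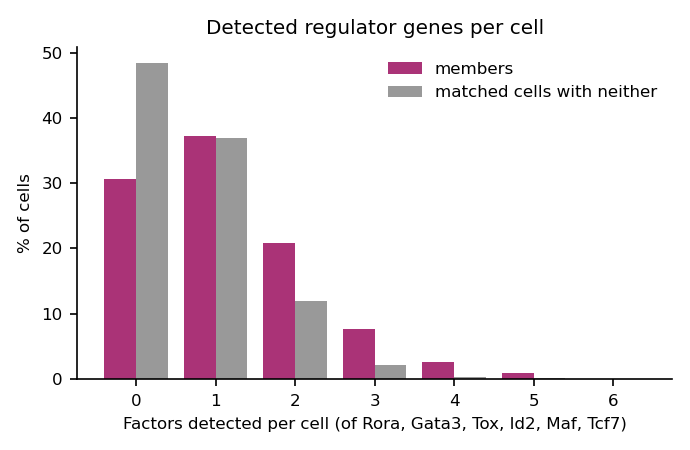
Share of Zbtb16+ Bcl11b- cells (purple, 1674 cells) and matched cells with neither gene (grey, 5022 cells) by the number of genes detected per cell among Rora, Gata3, Tox, Id2, Maf and Tcf7. None is detected in 30.7% of members and 48.4% of matched cells, and 2 are detected in 20.9% and 11.9%.

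Genes higher in members were long. Their median genomic span was 86.1 kb, against 26.6 kb for all tested genes and 56.9 kb for the lower genes. The share called higher went from 0.474% of genes up to 20 kb to 6.91% of genes over 200 kb, while the median log2 fold change of these bins was -0.09 and -0.05. Zbtb16 itself spans 182 kb (GRCm38, chromosome 9, 48654297 to 48836222, minus strand) and Bcl11b 93.2 kb (chromosome 12, 107910403 to 108003602, minus strand). The labels name nuclear RNA as the molecule, and the part of gene length in the calls was not tested. Mitochondrial transcripts made up 21.0% of UMIs in members and 21.8% in matched cells as means over the 6 libraries, a difference of -0.85 ± 0.88 percentage points (SD, n = 6), with an exact two-sided sign-flip permutation p of 0.094, where 0.031 is the smallest possible.

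Members were finally set beside the most similar cells, the 238 cells with at least 2 Zbtb16 UMIs and at least 1 Bcl11b UMI, paired 1 to 1 with members of like depth. Of 3015 genes tested with edgeR, 0 passed an adjusted p of 0.05 (0.0%), 118 had an unadjusted p under 0.05 (3.91%), and DESeq2 also called 0. Rora (51 UMIs in members and 37 in cells with Bcl11b, log2 fold change 0.44 ± 0.33, SE), Gata3 (61 and 45, 0.41 ± 0.31), Tox (257 and 255, 0.01 ± 0.14) and Cd3g (17 and 21, -0.41 ± 0.58) did not differ beyond the spread between libraries. Maf had 33 and 16 UMIs and a log2 fold change of 0.99 ± 0.49 (adjusted p = 0.997). In data simulated from these sums, 21.5% of genes with a 2-fold change were recovered. The simulation used a set dispersion (spread beyond counting error) of 0.02, so the share recovered at the spread of the real sums is not known.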

How the data were processed

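sci-RNA-seq3 libraries of 6 conditions were analysed. The authors deposited a count of UMIs per gene and barcode, without normalization or cell filter. The aligner is not given in the sources used here, and the submitters' processing notes name build mm9. The 28048 genes were matched to GENCODE M21 (GRCm38) by Ensembl identifier for positions only. T-cell receptor constant genes were not analysed here, and some list genes are not reported here. The libraries held 8007395 to 14555100 UMIs over all barcodes.

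The filter of the study's methods was applied: no fewer than 200 genes, no more than 2000 UMIs, and a mitochondrial share of up to 30%. It leaves fewer cells than the study states. No doublet caller was run, and the upper limit on UMIs was relied on. Members, gene lists and named genes were chosen with earlier results of these data known. Named genes were the 15 highest and 15 lowest called genes with the same direction in all 6 libraries, every called gene of the 17 lists, and 15 set genes. Other list genes are given to account for their list.

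Matched cells had 0 UMIs of Zbtb16 and Bcl11b, came from the same library and were the 3 nearest in total UMIs (1 for cells with both genes, paired in the same way). UMIs were summed per class and library. Genes with at least 30 UMIs over all sums, without Zbtb16 and Bcl11b, were tested with edgeR 4.0.16 (R 4.3.3; TMM factors, glmQLFit, glmQLFTest, library as a block). Mitochondrial genes were not left out of the sums or the test. The p-values were adjusted by Benjamini-Hochberg. DESeq2 1.42.0 was an alternative. On data simulated from the sums, the test recovered 56% of 2-fold changes for members against cells with neither, and 91% where a gene had at least 300 UMIs. The dispersion of the simulated data was set to 0.02 and not estimated from these libraries. CPM are the UMIs of a gene scaled to the same UMI total in each class. Intervals (scipy 1.17.1) are exact 95% intervals. They cover counting error only.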

Additional observations from a re-analysis of the deposited data

Results flagged for a closer look

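Barcodes that the filter left out also held cells that met the rule for Zbtb16 and Bcl11b, above the limit that a count of 0 allows. Of 448 barcodes with over 2000 UMIs, 43 (9.60%) met it, with 24 of 92 in ΔTE DN1 and 13 of 93 in ΔTE DN2a against 4 of 80 in WT DN1 and 1 of 117 in WT DN2a. Of 23136 barcodes with over 30% mitochondrial UMIs and at most 2000 UMIs, 432 (1.87%) met it, from 0.386% in WT DN2a to 3.03% in ΔTE DN1. In these barcodes each ΔTE library again lay above the WT library of its start, though for DN2b over 2000 UMIs this was 1 of 15 against 0 of 51, which at 3 counts allows a share of up to 5.88% (exact 95% upper limit 6.98%). The mitochondrial limit removed very different numbers, 518 barcodes in WT DN2a and 3440 to 5949 in the other libraries. Whether these barcodes are doublets or damaged cells was not tested.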

How the results depend on the processing

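Members against cells with neither gave 529 calls, and the count moved by over 1.5 times in these settings: 304 with 1 matched cell per member, 191 with DESeq2 (74 higher, 117 lower), 241 in the ΔTE libraries alone, 133 in the WT libraries alone, 140 with at least 3 Zbtb16 UMIs, 273 with at most 1000 UMIs, 121 without the library block, 139 without cells of 3 or more stromal UMIs and 130 without cells with a stromal UMI or 2 myeloid UMIs. The last setting and those of WT and ΔTE alone were chosen after seeing the data. Leaving out each library gave 235 (without ΔTE DN2a) to 531 calls, and 334 without WT DN2a. Fewer cells or genes enter several of these fits, and the cause was otherwise not tested. Tox, Themis, Rora, Gata3, Gzmb, Hmga2 and Ikzf2 were called in every setting, with 0.0494 (Rora) as their highest adjusted p, and Tox2 in every setting but the WT libraries alone, where it was not tested. Without stromal cells Cxcl12 (0.01) and Id3 (0.36) turned positive and were not called. Members against cells with both genes gave 0 calls in every setting.

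The shares of members, in the order DN1, DN2a, DN2b for WT and then for ΔTE, were 0.549%, 0.318%, 0.423%, 1.06%, 1.46% and 1.32% with at least 3 Zbtb16 UMIs, 9.89%, 7.10%, 5.31%, 15.6%, 16.4% and 12.1% with at least 1, 0.818%, 0.806%, 0.521%, 1.45%, 2.24% and 1.84% when thinned to 300 UMIs, and 2.61%, 1.97%, 1.92%, 5.21%, 6.35% and 5.91% with at least 300 genes. Thinned to 500 UMIs they were 1.57%, 1.56%, 3.02%, 3.70% and 4.90%, in the same order without WT DN2b, which moved less. With at most 1000 UMIs they were 1.72% in WT DN1, 3.37% in ΔTE DN1 and 4.25% in ΔTE DN2a, and with at most 20% mitochondrial UMIs 4.21% in ΔTE DN2a. ΔTE over WT in DN2a, the log2 ratio of shares was 1.82, and 1.48 and 1.24 when thinned to 300 and 500 UMIs, 2.20 with at least 3 and 1.21 with at least 1 Zbtb16 UMI, and 1.57 with at most 20% mitochondrial UMIs. In DN1 it was 0.99, and 0.66 with at least 1 Zbtb16 UMI. All ratios kept their direction. The difference in mitochondrial share was -1.09 with matching within wells and -0.996 with 1 matched cell per member, both at the smallest exact permutation p of 0.031.

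At a median of 609 UMIs per member, 0 UMIs of a gene in a cell does not show its absence, and sparse genes such as Il2rb or Klrk1 rest on few cells. Each condition was 1 culture of pooled mice, so culture and genotype cannot be told apart.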
